A study of Drosophila melanogaster with 12 samples.

Results

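The gene caudal (cad, FBgn0000251) was described in ovaries of Drosophila melanogaster, as 1 of the 17768 genes of an RNA count table and 1 of the 352 binding summits of a ChIP table. It was chosen by its Pho and GFP-Sfmbt signal and its RNA level in these tables, which place it among the strongest summits of Pho and Sfmbt and also among the well expressed genes of the ovary. Its summit values and its RNA levels are therefore given as a description, without a test, and the test is kept for its RNA change after Sfmbt depletion. RNA-seq was made on ovaries in which the germline driver nanos-Gal4 expressed UAS-Sfmbt RNAi (line TRiP.HMS00473), and on ovaries in which the same driver expressed UAS-mCherry RNAi against a fluorescent protein that flies lack. Each RNA group had 3 biological replicates, all ovaries came from 2-day-old females, and the totals were 34057506 to 51297961 counted fragments per library. The driver acts in germ cells, whereas whole ovaries were sequenced, so somatic cells such as follicle cells contribute RNA in both groups. The reading of 3 count columns as Sfmbt RNAi rests on elimination, as described with the processing. ChIP-seq used anti-GFP on fixed chromatin of ovaries with a GFP-Sfmbt knock-in, anti-Pho on that of yw ovaries, and anti-GFP on that of untagged Oregon-R ovaries, with 2 biological replicates each. Binding was measured in these 3 genotypes and not in the RNAi ovaries.

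The cad gene encodes a homeodomain transcription factor. In the fly its RNA is made in the ovary, loaded into the egg and spread evenly, and Bicoid protein then blocks its translation at the anterior, so that Cad protein forms a gradient highest at the posterior. Later the gene is transcribed at the posterior of the embryo, where it acts on gap and pair-rule genes and on hindgut formation, and in the adult gut Cad holds down antimicrobial peptide genes. Pho, which binds DNA in a sequence-specific way, and Sfmbt, which binds methylated histone tails, form PhoRC, a Polycomb group complex that marks Polycomb response elements near silenced developmental genes.

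The cad gene lies on the plus strand of chromosome arm 2L, from 20770731 to 20783135 (BDGP6.28, Ensembl gene model). Its span is 12405 bases, and the exons of its gene model sum to 2570 bases. A first exon starts at 20770731 or, in another model, at 20770894, a short middle exon of 54 bases starts at 20776567, and the last exon runs from 20781799 to 20783135. There were 0 other genes of the count table that overlapped cad on either strand. The summit assigned to cad was at 2L:20770528, outside the gene, 203 bases upstream of its 5′ end and 366 bases upstream of the second start. The nearest gene on the other side, dia, ended 2475 bases before the summit.

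At that summit the authors' signal, normalised to library size as RPM, was 4.02 RPM for GFP-Sfmbt, 39.5 RPM for Pho and 0.252 RPM for the untagged chromatin. The authors give 1 value per summit and ChIP, so there is no spread between replicates. In each ChIP every one of the 352 values is a whole multiple of 1 step, and 263, 315 and 6 steps stand behind these 3 values in that order. If 1 step is 1 read, which no source used here states, the exact 95% Poisson intervals are 3.55 to 4.53 RPM for GFP-Sfmbt, 35.3 to 44.1 RPM for Pho and 0.0925 to 0.548 RPM for the untagged chromatin, for counting error only. The GFP-Sfmbt value was 16 times the untagged one, with an exact counting interval of 7.23 to 43.9, against a median of 2.73 over the 351 summits with an untagged value above 0.

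Among all summits cad stood 12th by GFP-Sfmbt and 7th by Pho, at 4.53 and 8.75 times the medians of 0.886 and 4.52 RPM. Its untagged value was below the median of 0.336 RPM and stood 229th. In the authors' order, which follows the mean of both ranks, cad was 6th with a mean rank of 9.5, a tie with the summit of Prat2. The ratio of Pho to GFP-Sfmbt signal was 9.83 at cad, against a median of 5.26, and stood 43rd.

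**Figure D1:**
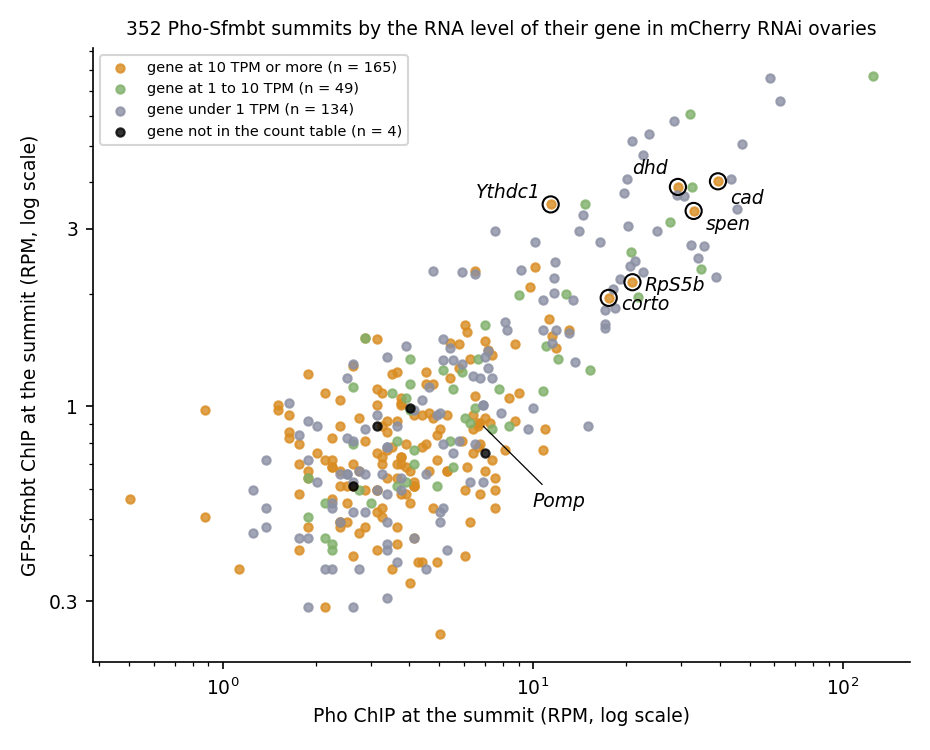
Each point is 1 of the 352 summits, with its Pho signal on the x axis and its GFP-Sfmbt signal on the y axis, both in RPM on log scales, coloured by the mean TPM of its gene in mCherry RNAi ovaries. The 6 ringed points are the genes at 10 TPM or more among the 50 strongest summits, and cad lies farthest to the right of them, at 39.5 RPM for Pho.

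A position close to a start site was common in the table. Of the 348 summits whose gene could be placed, 76 (21.8%) lay 0 to 500 bases upstream of the 5′ end of the assigned gene, 173 lay inside it, and the median distance to the 5′ end was 849 bases. Among those 76, cad was 5th by GFP-Sfmbt and 3rd by Pho. Only 2 summits of the table lay within 100000 bases of the cad summit, itself included. The other one, at 2L:20783291, was 156 bases past the 3′ end of cad, 12763 bases from the first summit, and was assigned to Pomp, whose 5′ end is 4365 bases away. It was weaker, with 0.901 RPM for GFP-Sfmbt, 6.77 RPM for Pho and 0.504 RPM for the untagged chromatin, and stood 167th by GFP-Sfmbt and 108th by Pho.

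**Figure D2:**
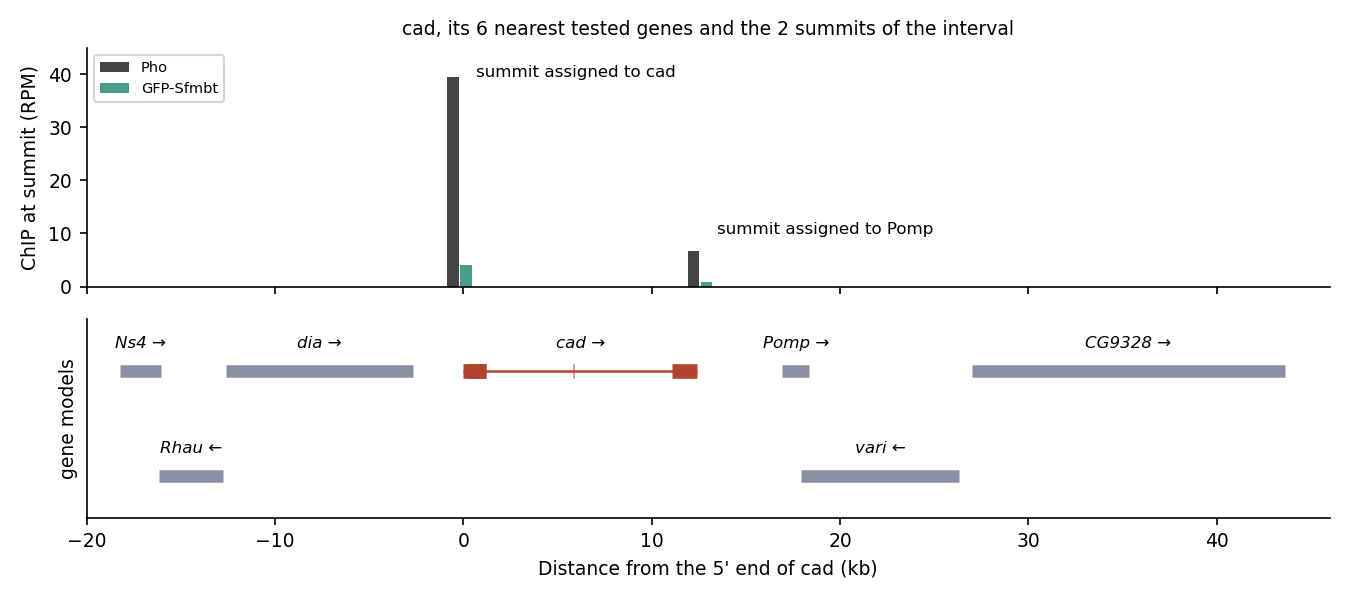
The upper panel gives the Pho and GFP-Sfmbt signal in RPM at the 2 summits of the interval, and the lower panel the models of cad and its 6 nearest tested genes, with arrows for the strand and the bars of a summit drawn side by side, against the distance in kb from the 5′ end of cad. The Pho bar at the 5′ end of cad reaches 39.5 RPM, and the one past its 3′ end reaches 6.77 RPM.

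The RNA of cad was counted in all 6 libraries, with 3414, 3743 and 6101 fragments in Sfmbt RNAi replicates 1 to 3 and 6695, 5690 and 4065 fragments in mCherry RNAi replicates 1 to 3. In TPM, in which counts are divided by exon length, which lets genes be compared, cad had 64.8, 73.4 and 92.9 TPM in Sfmbt RNAi and 83.5, 67.5 and 67.4 TPM in mCherry RNAi. The groups overlapped on this scale, and the highest library was an Sfmbt RNAi one. The means were 77.0 ± 14.4 TPM in Sfmbt RNAi and 72.8 ± 9.30 TPM in mCherry RNAi (SD, n = 3 each). This placed cad 1993rd of the table in Sfmbt RNAi and 1683rd in mCherry RNAi, where 82.6% of the 9667 tested genes had a lower mean TPM. The authors' deposited table gave cad a mean of 51.3 TPM in Sfmbt RNAi and 50.1 TPM in the control.

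The comparison between groups asks whether cad RNA changes when the germline loses Sfmbt. In CPM scaled by TMM factors, the scale of the test, cad had 90.9, 102.9 and 113.6 CPM in Sfmbt RNAi, against 139.2, 123.7 and 120.2 CPM in mCherry RNAi. All 3 Sfmbt RNAi libraries were below all 3 mCherry RNAi libraries, and 50.3% of tested genes were separated between the groups in one direction or the other. The means were 102.5 ± 11.3 CPM in Sfmbt RNAi and 127.7 ± 10.1 CPM in mCherry RNAi (SD, n = 3 each), and the exact two-sided permutation test over the 6 libraries gave p = 0.1, the smallest this design allows. In edgeR's quasi-likelihood test cad fell by 0.32 on the log2 scale (log2 fold change −0.32 ± 0.10 SE, 95% interval −0.555 to −0.080, Benjamini-Hochberg adjusted p = 0.0467), a fall of 19.8%.

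This call stood close to its threshold in a contrast where 34.7% of tested genes passed, 15.2% higher and 19.4% lower in Sfmbt RNAi. The log2 fold change was negative in every refit, from −0.394 to −0.199, but the call was lost with RLE scaling (adjusted p = 0.0833), DESeq2 (0.0554), the replicate block (0.103) and both covariates below. It was also lost when any 1 library other than Sfmbt RNAi replicate 3 was left out (adjusted p = 0.0721 to 0.179), and kept without that one (0.0303). The size of the change was near the middle for this contrast: 47.3% of tested genes had a larger absolute log2 fold change, and 27.8% had a larger fall. Of the 1880 genes called lower, 267 had a smaller change than cad.

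The direction depended on the scaling. In CPM of the library total, without TMM factors, cad had 95.4, 109.9 and 128.9 CPM in Sfmbt RNAi and 130.5, 112.3 and 110.9 CPM in mCherry RNAi, and the groups overlapped (exact permutation p = 0.5). The log2 ratio of group means was −0.32 in TMM-scaled CPM, −0.08 in unscaled CPM and 0.08 in TPM. The median tested gene moved as well, with a log2 ratio of −0.04, 0.19 and 0.36 on those scales. Set against that median, cad was lower by nearly the same amount on each, with differences of −0.28, −0.28 and −0.27 on the log2 scale. On these scales 27.8% to 28.1% of tested genes lay below cad. This likeness follows largely from arithmetic. The scales divide the same counts by different factors per library, and exon length cancels in a gene's own ratio. The likeness is therefore not a separate check of the fall. In the authors' deposited table the log2 fold change of cad was −0.29 with an adjusted p of 0.0355, beside a log2 ratio of mean TPM of 0.034.

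**Figure D3:**
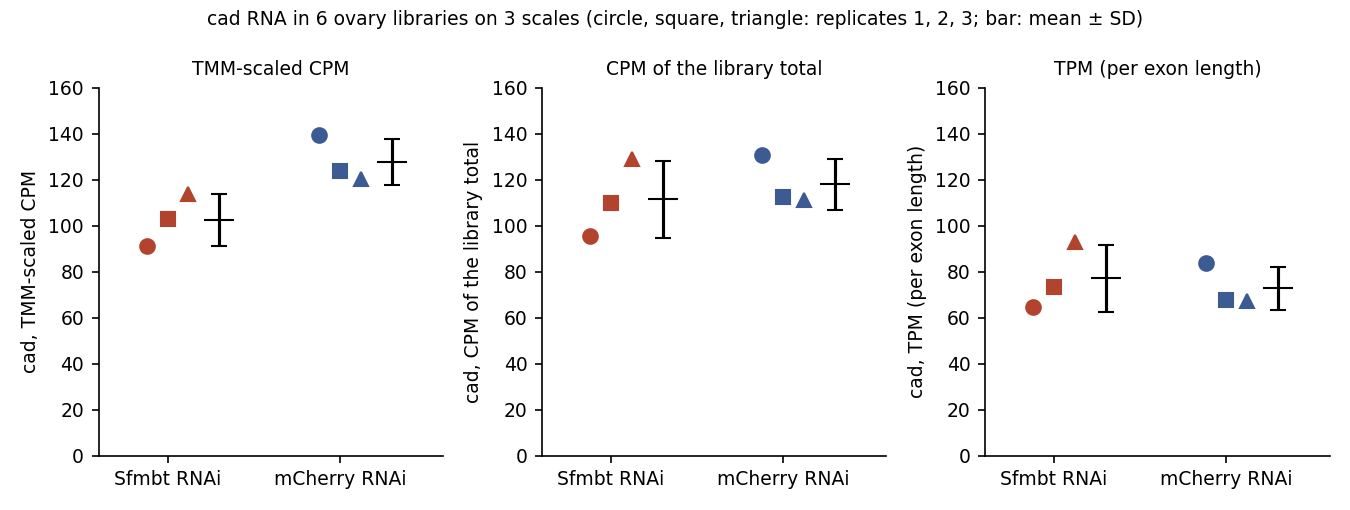
The level of cad in each library is shown as TMM-scaled CPM, as CPM of the library total and as TPM, with circle, square and triangle for replicates 1 to 3 and bars for the mean ± SD of each group (n = 3). The groups are separate in TMM-scaled CPM, with at most 113.6 CPM in Sfmbt RNAi and at least 120.2 CPM in mCherry RNAi, and overlap on the other scales.

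**Figure D4:**
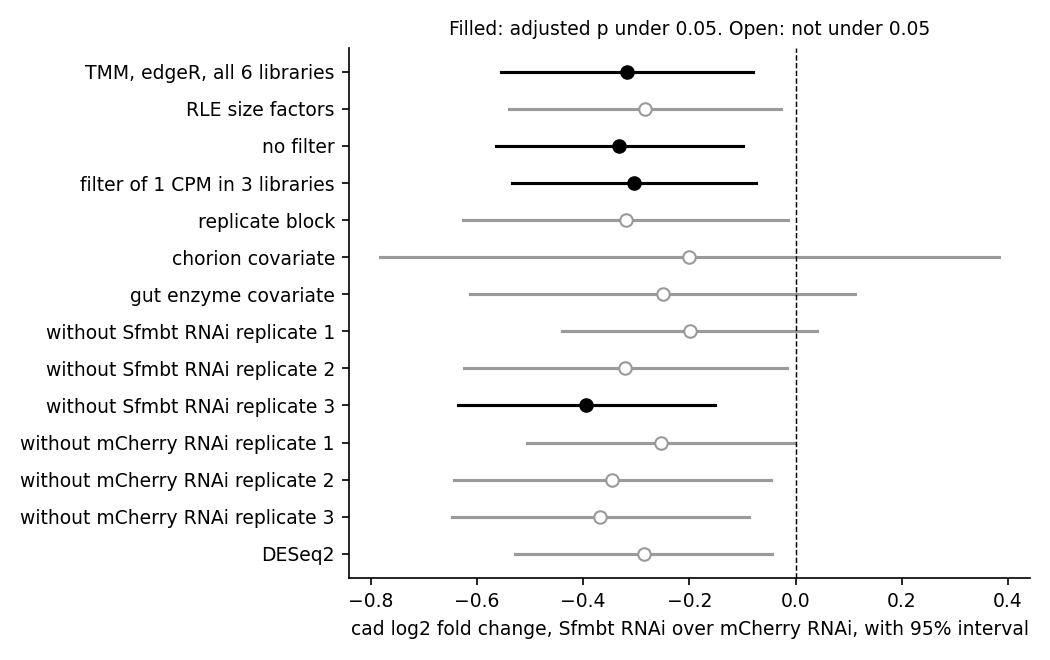
The log2 fold change of cad, Sfmbt RNAi over mCherry RNAi, is shown with its 95% interval for the edgeR test and for each other setting, with filled points where the adjusted p was under 0.05. All points lie below 0, between −0.394 and −0.199, and the interval with the chorion covariate is the widest, from −0.782 to 0.383.

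The RNAi target and the other PhoRC genes were measured in the same test. Sfmbt had 43.9, 43.8 and 36.7 CPM in Sfmbt RNAi and 146.1, 122.4 and 123.2 CPM in mCherry RNAi, with no overlap (log2 fold change −1.66, edgeR adjusted p = 0.000119). Of the 3 genes of the PhoRC list, 2 fell, the RNAi target Sfmbt among them, against 19.4% lower of all tested genes. The gene pho was also lower (log2 fold change −0.75, edgeR adjusted p = 0.00271), and phol, which encodes a second protein related to Pho, had −0.19 (edgeR adjusted p = 0.176).

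Markers of egg stage and of gut tissue moved with the groups. Summed over 9 chorion genes, which follicle cells transcribe late in egg formation, the libraries held 7547, 20190 and 12880 CPM in Sfmbt RNAi and 35270, 50570 and 45370 CPM in mCherry RNAi, and all 9 fell. The largest falls were in Cp15 (log2 fold change −2.10, edgeR adjusted p = 0.013) and Cp7Fa (−1.87, 0.0231), and the other named ones, Cp16, Cp36, Cp19 and Cp38, fell by 1.67 or less on the log2 scale. Without Sfmbt RNAi replicate 3 the calls of all 6 were lost (0.0612 for Cp15), without mCherry RNAi replicate 2 those of 4 and without mCherry RNAi replicate 3 those of 3. Summed over 31 digestive enzyme genes of the gut, where cad is also active, they held 1.87, 368.8 and 76.2 CPM in Sfmbt RNAi and 369.7, 2197 and 3974 CPM in mCherry RNAi, and of the 28 tested, zetaTry was called by edgeR, lower, and 27 were not, while DESeq2 called 13 lower. The call of zetaTry was lost without a filter and without Sfmbt RNAi replicate 1 or 2 or mCherry RNAi replicate 2 or 3 (0.0815 to 0.121 for these 4). Neither sum overlapped between groups (exact permutation p = 0.1 each), though the highest Sfmbt RNAi and the lowest mCherry RNAi sums of gut enzymes were nearly equal. With the chorion sum as a covariate the log2 fold change of cad was −0.20 (adjusted p = 0.787), and with the gut sum −0.25 (adjusted p = 0.324). Of the 33 other named genes that were called, 28 lost the call with the chorion covariate, 4 changed sign and Sfmbt kept both. With the gut covariate 23 lost it. Of those that changed sign, Cp16, Cp19 and Cp38 are members of the chorion sum itself. Since neither sum overlapped between groups, these refits cannot separate the sums from the RNAi. A lost call therefore does not show a part of egg stage or gut RNA. Within mCherry RNAi, cad was highest in the library with the least gut enzyme RNA and lowest in the one with the most. Within Sfmbt RNAi it was lowest, at 90.9 CPM, in the library with the least, at 1.87 CPM. With 3 libraries per group, these orders are a description only. The hindgut gene byn, which marks that tissue, had mean levels of 0.0289 TPM in Sfmbt RNAi and 0.0926 TPM in mCherry RNAi, too low to be tested. The part of egg stage and of gut RNA in the change of cad was not tested, and in bulk RNA fewer cells of a type and less RNA per cell cannot be told apart.

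Summed over the 5 hindgut regulators, the libraries held 68.3, 70.3 and 67.8 CPM in Sfmbt RNAi and 94.2, 87.3 and 87.9 CPM in mCherry RNAi, without overlap (exact permutation p = 0.1). Most of this sum was lin, with a mean of 52.4 of 68.8 CPM in Sfmbt RNAi and 73.7 of 89.8 CPM in mCherry RNAi. The next largest, bowl, had a higher mean in Sfmbt RNAi (14.6 against 12.5 CPM), while byn, drm and fkh had lower ones. The part of the difference in this sum in the change of cad was not tested. The sums over germline, follicle cell and Malpighian tubule markers overlapped between the groups. The 8 germline markers held 2463, 2114 and 2275 CPM in Sfmbt RNAi and 2148, 1726 and 1776 CPM in mCherry RNAi, with 4 of the 8 higher, 1 lower and 3 not called, against 15.2% higher and 19.4% lower of all tested genes. Among the higher ones was ovo (log2 fold change 0.55, edgeR adjusted p = 0.0125), a call lost without mCherry RNAi replicate 2 or 3 (0.0624 and 0.0597). The 12 follicle cell markers held 30800, 28980 and 20080 CPM in Sfmbt RNAi and 23240, 24850 and 20960 CPM in mCherry RNAi. Of the 12, zfh1 was higher (0.34, adjusted p = 0.0131), Fas3 was lower (−0.40, adjusted p = 0.041) and 10 were not called by edgeR, while DESeq2 called 3 higher and 1 lower. The call of zfh1 was lost without mCherry RNAi replicate 2 or 3 (0.0551 and 0.0577), and that of Fas3 with RLE scaling and without Sfmbt RNAi replicate 1 or 3 or mCherry RNAi replicate 2 or 3 (0.101 to 0.138 for these 4). The 6 Malpighian tubule markers ranged from 41.1 to 82.3 CPM in Sfmbt RNAi and from 55.1 to 71.5 CPM in mCherry RNAi, with 0 called by edgeR, 0 at an unadjusted p under 0.05 and 0 by DESeq2.

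Set against the other strongest summits, cad was the most highly expressed gene of the first 10. These 10 summits were assigned to 8 genes, of which cad was the 1 at 10 TPM or more in mCherry RNAi, while 5 were under 1 TPM and the median was 0.0717 TPM. The strongest summit of all, with 7.72 RPM for GFP-Sfmbt and 125 RPM for Pho, was assigned to abd-A, a Hox gene of the posterior body, and lay 39488 bases upstream of it. This gene averaged 2.85 ± 1.11 TPM in Sfmbt RNAi and 1.91 ± 0.318 TPM in mCherry RNAi. Its neighbour Abd-B, the most posterior Hox gene, held the second with 6.59 and 62.8 RPM for GFP-Sfmbt and Pho, at 0.106 ± 0.0402 TPM in Sfmbt RNAi and 0.0928 ± 0.0207 TPM in mCherry RNAi.

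Next above cad in the authors' order was the summit of oc, which encodes the head homeodomain protein Orthodenticle. It had 4.08 RPM for GFP-Sfmbt and 43.4 RPM for Pho and lay 214 bases upstream of its gene. The RNA of oc averaged 0.0184 ± 0.0105 TPM in Sfmbt RNAi and 0.0097 ± 0.0087 TPM in mCherry RNAi. The GATA factor gene grn, with 5.82 RPM for GFP-Sfmbt and 28.5 RPM for Pho, averaged at most 0.0061 TPM in either group. Prat2, an enzyme of purine synthesis that tied with cad in rank, averaged 3.20 ± 1.697 TPM in Sfmbt RNAi and 3.05 ± 1.63 TPM in mCherry RNAi. CG31275 had no counted fragment in any of the 6 libraries. Of the 8 genes, unc-4, which encodes a neuronal homeodomain protein, rose (log2 fold change 2.48, edgeR adjusted p = 0.00699). It had 0.309, 0.336 and 0.483 TPM in Sfmbt RNAi and 0.0749, 0.0203 and 0.0568 TPM in mCherry RNAi. These came from few fragments, 19, 20 and 37 against 7, 2 and 4. Of the others, cad fell, 3 were not called and 3 were too low to be tested. Over all tested genes 15.2% were higher and 19.4% lower.

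Among the 25 strongest summits, 13 lay 0 to 500 bases upstream of their gene, as at cad. The 12 other genes of these summits had mean levels in mCherry RNAi of 0.0032 to 4.82 TPM, the highest being noc, a zinc finger gene of appendage and brain development, and 10 of them were under 1 TPM. Over all 76 genes with a summit in that window, 27 (35.5%) were at 10 TPM or more, and cad was 11th by level.

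The 50 strongest summits were assigned to 38 genes, of which 6 (15.8%) were at 10 TPM or more in mCherry RNAi and 26 were under 1 TPM. Of the 78 measured genes whose strongest summit stood 51st to 150th, 42 (53.8%) were at 10 TPM or more, and of the 170 measured genes from 151st on, 109 (64.1%). Over all 286 measured summit genes the share was 54.9%, the median was 20.9 TPM, and cad was 69th. Across these genes, which are not replicates, Spearman's rho between the RPM of the strongest summit and mean TPM in mCherry RNAi was −0.21 for GFP-Sfmbt and −0.19 for Pho. Of the 38 genes 3 rose and 4 fell, 12 were not called and 19 were not tested, and of all 286 genes 38 rose, 37 fell, 146 were not called and 65 were not tested. With 15.2% higher and 19.4% lower over all tested genes, these counts are near the background.

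**Figure D5:**
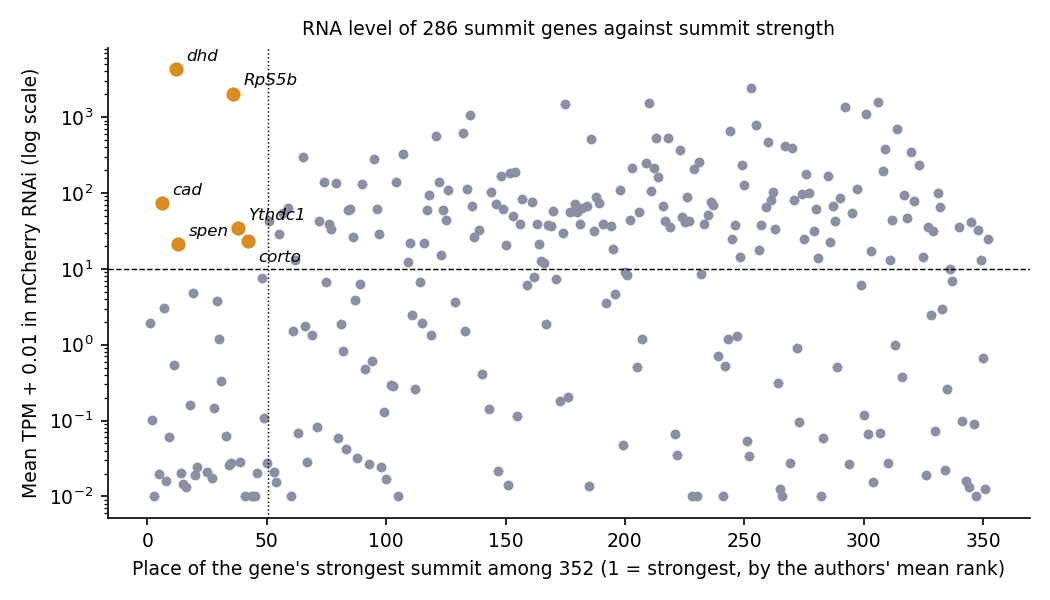
Each point is 1 of 286 genes, placed on the x axis by its strongest summit in the authors' order (1 is the strongest) and on the y axis by its mean TPM in mCherry RNAi plus 0.01, on a log scale. Left of the dotted line at the 50th summit, 6 named genes lie above the dashed line at 10 TPM, and cad is the leftmost of them at the 6th place.

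The 5 other expressed genes of the 50 strongest summits changed in different ways. The thioredoxin gene dhd, needed for the egg to start embryonic development, had 1742, 1859 and 2199 TPM in Sfmbt RNAi and 3984, 4065 and 4806 TPM in mCherry RNAi. It fell well beyond the spread of either group (log2 fold change −1.55, edgeR adjusted p = 0.00027). Its summit carried 3.88 RPM for GFP-Sfmbt and 29.4 RPM for Pho, and lay inside the gene. The large RNA-binding protein gene spen had 29.9, 28.5 and 39.6 TPM in Sfmbt RNAi and 24.7, 18.9 and 19.6 TPM in mCherry RNAi (log2 fold change 0.23, edgeR adjusted p = 0.138). Ythdc1, which encodes a nuclear reader of methylated adenosine in RNA, fell by 0.40 on the log2 scale (edgeR adjusted p = 0.00539). The chromatin factor gene corto fell by 0.34 (edgeR adjusted p = 0.0244), a call lost without Sfmbt RNAi replicate 1 or 2 or mCherry RNAi replicate 1 or 3 (0.0554 to 0.0909). RpS5b, a ribosomal protein gene enriched in the ovary and with a paralog, had a log2 fold change of −0.20 (adjusted p = 0.172 in edgeR).

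By class of protein cad also had few companions. Of the summit genes 43 were homeobox genes, by a list written after the table was seen and used for description only. Of these 37 were under 1 TPM in mCherry RNAi, 4 were at 1 to 10 TPM and 2 at 10 TPM or more, and 0 were above cad. The second was Six4, a gene of mesoderm and gonad development, at 26.6 TPM in Sfmbt RNAi and 14.5 TPM in mCherry RNAi.

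The genes around cad did not all move with it. Upstream, the formin gene dia, whose product builds actin filaments for cell division, had 67.6, 75.7 and 71.8 CPM in Sfmbt RNAi and 98.7, 105.3 and 112.5 CPM in mCherry RNAi. Its groups were clearly separate and it fell (log2 fold change −0.56, edgeR adjusted p = 0.00251), with its 3′ end 2678 bases from cad. Downstream, vari, a scaffold gene of septate junctions between epithelial cells, had 20.1, 27.6 and 17.5 CPM in Sfmbt RNAi and 60.8, 66.3 and 63.0 CPM in mCherry RNAi. It fell further than cad or dia (log2 fold change −1.55, edgeR adjusted p = 0.000947), at 5527 bases from cad on the other strand.

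Between cad and vari lay Pomp, the proteasome assembly gene to which the second summit was assigned, with 131.7, 111.4 and 127.7 CPM in Sfmbt RNAi and 113.3, 98.7 and 100.9 CPM in mCherry RNAi (log2 fold change 0.24, edgeR adjusted p = 0.0745). Its lowest Sfmbt RNAi library was below its highest mCherry RNAi library. The 3 remaining neighbours had small differences that were not called: the helicase gene Rhau had a log2 fold change of 0.02 (adjusted p = 0.879 in edgeR), the GTPase gene Ns4 −0.13 (0.196) and CG9328 −0.03 (0.881). Of the 6 nearest tested genes, 2 fell and 0 rose in edgeR, with 1 higher (Pomp) at an unadjusted p under 0.05 and 1 higher by DESeq2. Over all tested genes 34.7% were called and 19.4% were lower, so the neighbours' count is near the background.

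As a maternal RNA, cad was set beside 28 genes of the maternal axis system. Of 26 tested, 7 rose, 6 fell and 13 were not called, against 15.2% higher and 19.4% lower of all tested genes, with a median log2 fold change of 0.14 against −0.04 over all tested genes. Those that rose and were named by the rule were aub (0.88) and vas (0.78), which act in germ plasm and small RNA pathways, grk (0.73), the signal from oocyte to follicle cells, and orb (0.60), a translational regulator of oocyte RNAs, whose call was lost without mCherry RNAi replicate 2 or 3 (adjusted p = 0.0845 and 0.0812). The largest fall was in pgc, a repressor of transcription in germ cells, with 241.7, 281.2 and 199.8 CPM in Sfmbt RNAi and 592.9, 790.9 and 707.2 CPM in mCherry RNAi (log2 fold change −1.53, edgeR adjusted p = 0.000693). The next named fall was in swa (−0.55), which acts in bcd RNA localisation. The chorion and gut sums given above moved with the same groups, and their part in these counts was not tested. Of the 2 genes not tested, cup had no counted fragment and BicC at most 16 in a library. Whether such low counts mean that the RNA was absent or that it was not counted was not tested.

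The RNA of hb, the anterior gap gene, and of tor, the receptor that patterns both ends, were picked out after their values were seen. They had log2 fold changes of −0.30 and −0.42 (adjusted p = 0.0445 and 0.0275 in edgeR). The call of hb was lost without any 1 library other than Sfmbt RNAi replicate 3 (0.0807 to 0.177), and that of tor without Sfmbt RNAi replicate 1 or 2 or mCherry RNAi replicate 1 or 2 (0.0639 to 0.101).

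Of the 3 genes through which cad translation is controlled, 1 fell. Over all tested genes 34.7% were called and 19.4% were lower, so this count is near the background. The RNA of bcd, whose protein binds cad RNA, had 50.8, 60.9 and 58.0 CPM in Sfmbt RNAi and 77.1, 69.9 and 69.2 CPM in mCherry RNAi, without overlap (log2 fold change −0.35, edgeR adjusted p = 0.0209). Without Sfmbt RNAi replicate 1 or mCherry RNAi replicate 1 or 2 this call was lost (0.0511 to 0.0592). In TPM the means of bcd were nearly equal, at 42.9 ± 5.81 TPM in Sfmbt RNAi and 41.6 ± 4.59 TPM in mCherry RNAi (SD, n = 3 each). The median tested gene was shifted upward on that scale, so this likeness to cad is not particular to these genes. The gene of the cap-binding protein that Bicoid recruits, eIF4EHP, had a log2 fold change of −0.02 (adjusted p = 0.881 in edgeR), and bin3, a methyltransferase gene also needed for the repression, had 0.16 (edgeR adjusted p = 0.196).

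Embryonic genes that respond to Cad were mostly at very low levels in the ovary. Of 8 listed genes 4 were tested and 0 were called by edgeR or DESeq2, with 1 (gt) at an unadjusted p under 0.05 in edgeR. The pair-rule genes ftz and eve, the gap gene kni and the signal gene wg were too low to be tested, with mean levels of 0.0056 to 0.145 TPM over both groups. Of those tested, fog, a signal for cell shape change in gastrulation, averaged 29.1 ± 0.537 TPM in Sfmbt RNAi and 25.01 ± 2.51 TPM in mCherry RNAi, and the pair-rule gene hairy, listed as hry, 10.7 TPM in Sfmbt RNAi and 9.14 TPM in mCherry RNAi. In the test neither was called, with log2 fold changes of −0.17 for fog (edgeR adjusted p = 0.122) and −0.16 for hry (0.568). The gap gene gt had 0.713, 1.02 and 1.03 TPM in Sfmbt RNAi and 0.378, 0.462 and 0.311 TPM in mCherry RNAi, with no overlap, as 59.3% of tested genes had on this scale (log2 fold change 0.85, edgeR adjusted p = 0.0746). The forkhead gene fkh, needed in the gut, had a log2 fold change of −0.79 (adjusted p = 0.33 in edgeR).

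Of the 5 hindgut regulators, where Cad also acts, 4 were tested and 1 fell, a count near the background of 19.4% lower of all tested genes. The one that fell was lin, a regulator of transcription in hindgut and epidermis, with 48.5, 53.0 and 55.7 CPM in Sfmbt RNAi and 80.4, 71.6 and 69.03 CPM in mCherry RNAi (log2 fold change −0.49, edgeR adjusted p = 0.00556). The zinc finger gene bowl had a log2 fold change of 0.22 (adjusted p = 0.409 in edgeR). The related gene drm carried the 11th summit of the table, with 5.39 RPM for GFP-Sfmbt and 23.7 RPM for Pho. Its RNA was scarce, at 0.253 ± 0.144 TPM in Sfmbt RNAi and 0.537 ± 0.131 TPM in mCherry RNAi (log2 fold change −1.49, edgeR adjusted p = 0.0573).

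Antimicrobial peptide genes, which Cad represses in the gut, gave 9 tested members of 13, of which 3 fell, 0 rose (0 also by DESeq2 or at an unadjusted p under 0.05) and 6 were not called, against 34.7% called and 19.4% lower of all tested genes, with a median log2 fold change of −0.61. The called ones were Def (−2.35), AttA (−2.06) and CecA1 (−1.09), with edgeR adjusted p of 0.017, 0.00793 and 0.0488. Without 1 library, AttA stayed called, Def lost its call in 3 of 6 refits and CecA1 in 5 of 6 (0.0508 to 0.165 where lost). Their mean levels were 1.28 to 2.66 TPM in Sfmbt RNAi and 3.24 to 10.3 TPM in mCherry RNAi. The gut enzyme sums above were lower in the same libraries, and their part in these falls was not tested.

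The tested genes whose pattern over the 6 libraries was most like that of cad were taken by Pearson's r of log2 TMM-scaled CPM plus 0.5. The first was AP-1mu, a subunit of a clathrin adaptor, with r = 0.999. It had 93.5, 104.6 and 112.7 CPM in Sfmbt RNAi and 133.8, 122.3 and 120.0 CPM in mCherry RNAi, the same order of libraries as cad, at similar levels. The next were the forkhead gene jumu (0.997), the centromere gene cal1 (0.997), Nprl3 of the GATOR1 complex (0.996) and SCCRO4, a factor of cullin neddylation (0.996). In all, 647 tested genes had an r of 0.9 or more with cad, and the libraries share 1 contrast and its scaling, so such likeness is a description.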

How the data were processed

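RNA was measured in 6 ovary libraries and binding in 6 ChIP libraries. The deposited counts are fragments per gene that the authors made with STAR 2.7.2a and featureCounts 1.6.3, as the submitters' processing notes name them. The model, per the file headers, was BDGP6.28, Ensembl release 101, and pairs were counted as reverse-stranded. Columns A1 to A3 were read as Sfmbt RNAi by elimination, C1 to C3 being the control. As a check made afterwards, fold changes were set against those of the authors' deposited table (Pearson's r = 0.993 across 221 genes). Of 17768 IDs 17671 matched a symbol.

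Counts were tested with edgeR 4.0.16 (filterByExpr minimum 10, TMM, robust quasi-likelihood F-test, group as the only term, Benjamini-Hochberg at 0.05 over 9667 genes) after a test on simulated data. Errors of fold changes are standard errors from that test. TPM were computed from the counts and the deposited exon lengths. DESeq2 1.42.0 and other settings served as alternatives.

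The deposited RPM values per summit are the authors'. The submitters' processing notes list Bowtie2 and deepTools 3.5.0. The sources used here do not give the peak caller, the window or how replicates were combined. RPM values were whole multiples of 1 step within 0.01 step (0.0153, 0.125 and 0.0420 RPM for GFP-Sfmbt, Pho and untagged), so intervals and low values cover counting error only. The rank scores of the deposited table set its order; the table's log2 fold changes, p-values and mean TPM are the authors', and their tool is not named there either.

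The gene and the lists were chosen with earlier results of these data known. Genes were named by a rule: cad, the PhoRC genes, genes of the strongest summits (first 10 by order, Pho or GFP-Sfmbt, of which a selection is printed, and those at 10 TPM or more among 50), the 3 nearest tested genes on each side, the 5 most alike, all members of 3 short lists, and up to 6 called members of each other list. Within groups Spearman's rho was 0.982 to 0.995, and every pair of replicates differed by more than sampling noise. The series describes replicates as biological, without saying what separates them. The genes noc, Six4, hb, tor, cup and BicC were named after their values were seen.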

Additional observations from a re-analysis of the deposited data

How the results depend on the processing

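The fall of cad kept its direction in all refits, while its adjusted p of 0.0467 moved over the threshold easily. Log2 fold changes were −0.284 with RLE size factors, −0.286 with DESeq2, −0.320 with the replicate block, −0.200 with the chorion covariate and −0.250 with the gut enzyme covariate, all with an adjusted p above 0.05, and −0.332 without a filter and −0.304 with 1 CPM in 3 libraries, both with one under it. Leaving out 1 library gave −0.394 to −0.199. Genes called numbered 3350 and went to 118 (95 higher, 23 lower) with the chorion covariate, 1188 (514 and 674) with the gut covariate and 2959 with the block; leaving out 1 library gave 1756 to 3295, with 706 to 1452 higher and 1050 to 1843 lower. RLE gave 1645 higher and 1654 lower. The covariate refits cannot separate the chorion or gut sums from the RNAi, since both sums lay apart between the groups. The replicate block is a setting only, since same-numbered libraries deviated together with correlations of 0.432, 0.305 and 0.073. Only the pair of number 1 was the best match of both its libraries, while Sfmbt RNAi replicate 2 matched mCherry RNAi replicate 3 better (0.346).

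The level of cad was 51.3 TPM in Sfmbt RNAi and 50.1 TPM in the control in the authors' deposited table. Its summit stood 11th by the ratio and 10th by the difference of GFP-Sfmbt and untagged signal. Genes at 10 TPM or more numbered 1 among the first 10 summits, 3 among 25 and 6 among 50. Of 658 refits of 51 other named genes, 504 kept direction and call, 130 lost the call, 5 gained it and 19 changed sign. Sign changes were Rhau (−0.025 to 0.087 with 1 library left out, −0.015 without Sfmbt RNAi replicate 3); CG9328 0.003 (RLE), 0.001 (DESeq2), 0.401 (chorion), 0.211 (gut) and −0.146 to 0.149 with 1 library left out; eIF4EHP 0.012 (RLE), 0.009 (DESeq2), and −0.07 to 0.04 with 1 library left out; and with the chorion covariate Ns4 0.04, Pomp −0.106, bowl −0.093, drm 0.825, Fas3 0.088, Cp16 0.276, Cp19 0.279 and Cp38 0.023. Of 33 of these genes called, 7 lost the call with the block, 4 with RLE (AP-1mu, hb, CecA1 and Fas3) and 7 to 16 with 1 library left out, most without mCherry RNAi replicate 2. The cause was not tested. A search for motifs at the summit was not run. Depth did not limit cad, at 3414 fragments or more per library, but limits the genes under 1 TPM.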

Other observations

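In the authors' deposited table, cad was 1 of 66 genes, of 247 with an adjusted p and mean TPM above 0 in both groups, whose log2 fold change and TPM difference had opposite signs. All 66 had a negative log2 fold change and a higher mean TPM in Sfmbt RNAi, and 10 of them had an authors' adjusted p under 0.05. The median tested gene had a log2 ratio of 0.36 in TPM computed from the counts and −0.04 in TMM-scaled CPM.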
